A study of Bos taurus with 6 samples.

Results

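PPP1R16B (Entrez gene 282091) encodes TIMAP, a regulatory subunit of protein phosphatase 1. It was taken as every probe set that the annotation of the array gives to this symbol, which was 1 of 24016 probe sets and 1 of 9162 named genes. The cells were primary bovine aortic endothelial cells, freed from the aorta with collagenase and kept in RPMI medium. One group (basal, 3 arrays) received no treatment and the other (TGFB1, 3 arrays) received TGF-beta 1 at 5 ng/ml for 24 hours. RNA was hybridised to an Affymetrix bovine array, and the deposited values are log2 expression. The labels name triplicates from different cultures without saying whether the cultures came from separate animals. The p-values thus set the difference between groups against the spread of replicate arrays only. That spread may be partly technical and may leave out variation between animals.

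Protein phosphatase 1 removes phosphate from serine and threonine. Its catalytic subunit works in complexes with regulatory subunits, which decide where it sits and which substrates it meets. TIMAP belongs to the family of myosin phosphatase targeting subunits, which carry ankyrin repeats and a motif that binds the catalytic subunit. Unlike most of that family it ends in a CAAX box, is prenylated there and lies at the plasma membrane. It is abundant in endothelial cells, where it is known for a role in barrier function, and its name, TGF-beta-inhibited membrane-associated protein, records that TGF-beta lowers its mRNA in endothelial cells. The gene was proposed here with its fall in these arrays already known.

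PPP1R16B stood at 10.02 log2 in basal 1, 9.68 in basal 2 and 9.21 in basal 3. After TGF-beta 1 it stood at 7.01 log2 in TGFB1 1, 7.36 in TGFB1 2 and 7.65 in TGFB1 3. The groups did not overlap, and the lowest basal array lay 1.56 log2 above the highest treated one. The 3 basal arrays spanned 0.81 log2 and the 3 treated arrays 0.64, so the gap was wider than the span of either group. Among the 9 pairs of a treated and a basal array, the fall ran from 2.96-fold (TGFB1 3 against basal 3) to 8.09-fold (TGFB1 1 against basal 1).

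**Figure D1:**
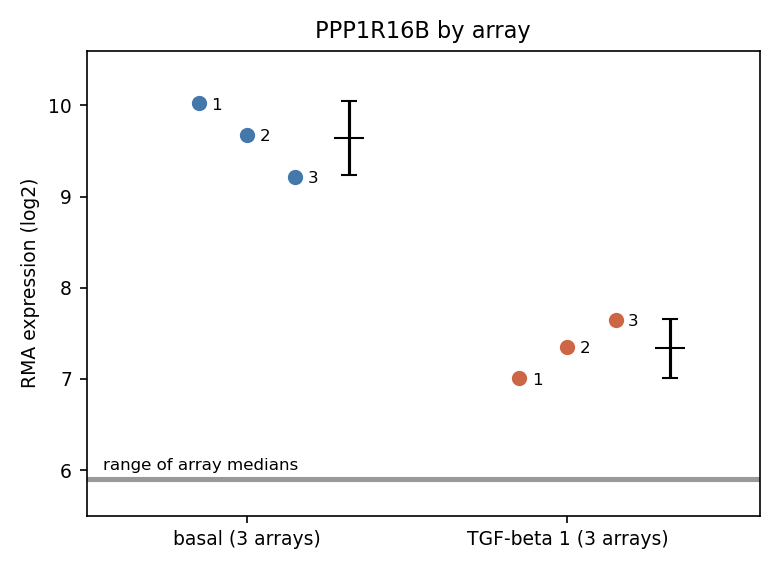
RMA expression (log2) of PPP1R16B on each array, with replicate numbers beside the points, the mean ± SD of each group (black, n = 3) and the range of the array medians (grey band). The basal arrays lie between 9.21 and 10.02 and the treated arrays between 7.01 and 7.65, above the array medians of 5.88 to 5.92.

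PPP1R16B went from the upper part of the array range to near the middle of the named genes. It exceeded 94.4%, 92.7% and 89.8% of all probe sets on basal 1, basal 2 and basal 3, and 68.1%, 72.1% and 75.4% of them on TGFB1 1, TGFB1 2 and TGFB1 3. Among the 9162 named genes the corresponding shares were 88.9%, 85.9% and 81.1% on the basal arrays and 48.8%, 54.2% and 59.0% on the treated ones. The treated level was thus well clear of the 25th percentile of the arrays (4.52 to 4.60 log2), though these values carry no detection call.

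The mean went from 9.64 ± 0.41 to 7.34 ± 0.32 log2 (SD, n = 3 each). That is a change of -2.30 log2 (SE 0.26), or a 4.93-fold fall with a 95% interval of 3.19 to 7.61. PPP1R16B fell past the threshold of 0.05, with a limma adjusted p = 0.0260 over all 9162 genes. Over all 24016 probe sets, of which 0.354% were called lower, the limma adjusted p was 0.0376. Genes called lower made up 1.17% of all genes (107 genes) and genes called higher 0.557% (51 genes). An exact two-sided permutation test over the 6 arrays gave p = 0.1, the smallest that 3 arrays against 3 allow. The median change of all genes was -0.03 log2.

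Only 19 of the 9162 genes stood at a fall of 4-fold or more, and PPP1R16B was the 10th in size among all falls. It was the 8th in size among the 107 called falls. By p-value it ranked at place 33. Directly before it in size stood FABP4, a fatty acid binding protein, which fell by 2.43 log2, SLCO2B1, an organic anion carrier, which fell by 2.38, and AOC3, a vascular amine oxidase, which fell by 2.35 (SE 0.28, 0.28 and 0.34). Directly after it stood EFNA1, an ephrin ligand, at -2.20 (SE 0.44) and LSR, a lipoprotein receptor of tricellular junctions, at -2.17 (SE 0.56), neither past the threshold (limma adjusted p = 0.0743 and 0.12). A gene known by an identifier alone followed, falling by 2.14 (SE 0.32). These 7 changes differed by less than their intervals, so the place of PPP1R16B among them is not fixed.

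**Figure D2:**
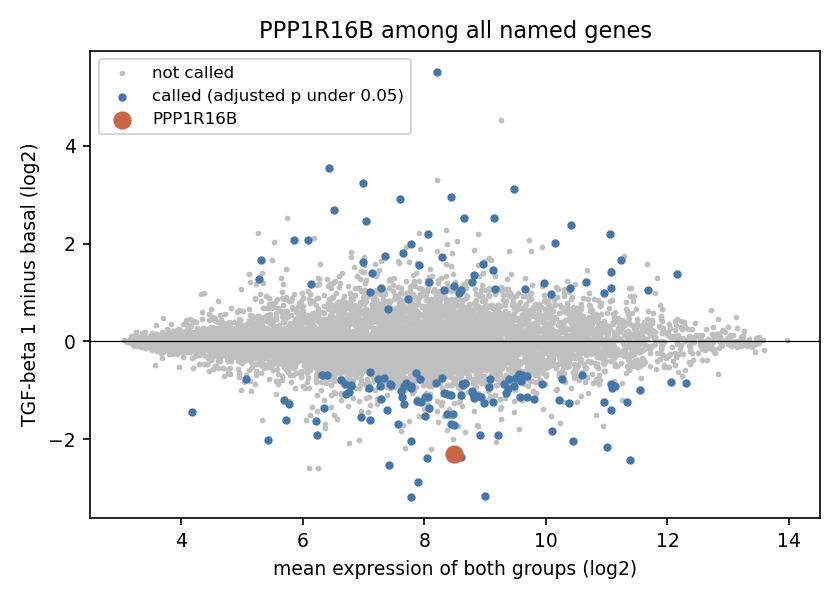
Change after TGF-beta 1 (log2) against the mean expression of both groups (log2) for 9162 named genes, with called genes in blue. PPP1R16B (orange), at -2.30, is the 10th lowest point.

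The size of the change moved little between settings, while the call did not always hold. Only another normalization or centring, an array left out and the array split as a block, described below, could move that size. Leaving out 1 array at a time gave changes between -2.51 and -2.11 log2. Without basal 3, a fit in which 1538 of all genes passed by limma (1017 lower), the call held (limma adjusted p = 0.00615). It ended without basal 1 (0.1002), basal 2 (0.167), TGFB1 1 (0.0723), TGFB1 2 (0.181) and TGFB1 3 (0.116), fits in which 0 to 8 of all genes passed by limma and 1010 to 1359 had an unadjusted p under 0.05. Across the whole table basal 3 lay beside TGFB1 2 and TGFB1 3 on the first principal component (36.0, 39.5 and 41.4), away from basal 1, basal 2 and TGFB1 1 (-67.8, -38.8 and -10.3). Once basal 3 was left out, the basal group held only low coordinates, while TGFB1 2 and TGFB1 3 held high ones. Group and coordinate then partly coincided, so the smaller p-value without basal 3 is no separate check of the call. PPP1R16B did not follow this split one way: basal 3, with the high coordinate, was the lowest of the basal arrays, while TGFB1 1, with the low coordinate, was the lowest of the treated ones. Keeping this split as a block (a term chosen with the data known) gave a change of -2.28 log2 (limma adjusted p = 0.00899). With that block 878 of all genes passed, against 158 without it. The block was read from these same arrays, so its smaller p-value is no independent check of the call.

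**Figure D3:**
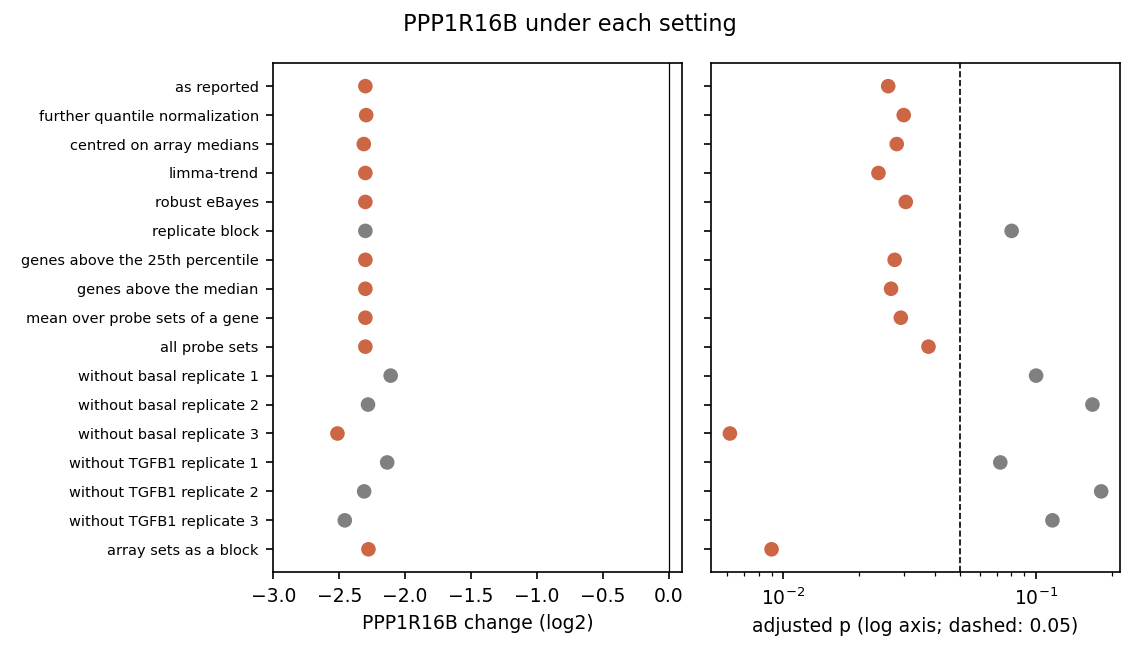
PPP1R16B change (log2, left) and adjusted p (log axis, right, dashed line at 0.05) as reported and under each alternative other than a changed threshold, with settings that keep the call in orange. Changes lie between -2.51 and -2.11, while adjusted p runs from 0.00615 to 0.181.

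The arrays hold RNA of whole cultures, in which fewer cells that express a gene and less of its RNA per cell cannot be told apart. Of 13 measured endothelial markers 1 fell, CLDN5 (the claudin of endothelial tight junctions, a change of -3.17 log2, SE 0.41), and none rose (limma), where 1.17% of all genes were called lower. At an unadjusted p under 0.05 by limma 5 of the 13 were lower and 1 higher, against 11.4% and 5.99% of all genes. In 7 of the 13 the treated arrays all lay below the basal ones, against 15.1% of all genes, and in 2 they all lay above, against 8.19%. Those 2 were EMCN, at 0.82 log2 (SE 0.20, and 0.82 with SE 0.23 on its other probe set), and ROBO4, at 0.75 (SE 0.35). ERG, of the 7 below, stood at -0.60 (SE 0.20). The adhesion molecule PECAM1 stood at 12.29 ± 0.18 and 11.77 ± 0.06 log2, the vascular cadherin CDH5 at 12.10 ± 0.30 and 11.53 ± 0.20, and TEK, the angiopoietin receptor, at 10.42 ± 0.13 and 10.43 ± 0.28 (basal and treated, SD, n = 3). VWF (6.19 and 6.01), KDR (5.14 and 4.47) and FLT1 (5.08 and 5.00), also markers of endothelium, lay near or below the array medians. Other probe sets of FLT1 stood at changes of 0.70 (SE 0.33) and 0.04 (SE 0.10) log2. Those of PECAM1 and CDH5 stood at -0.67 (SE 0.13) and -0.92 (SE 0.32). Those of ERG, VWF and KDR stood at -0.56 (SE 0.39), -0.05 (SE 0.12) and -0.03 (SE 0.10). The mean over the 13 markers changed by -0.39 log2. Relative to that mean on the same array, PPP1R16B changed by -1.92 log2, a 3.77-fold fall, with lower values in 9 of 9 pairs (exact permutation p = 0.1, the smallest possible). Without CLDN5 in the mean that fall was 4.43-fold. Relative to PECAM1 alone it was 3.45-fold, and relative to CDH5 alone 3.32-fold, the smallest of these.

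Of 8 smooth muscle markers TAGLN, an actin-binding protein, alone rose, with a limma adjusted p = 0.0188 and a change of 2.19 log2 (SE 0.16), where 0.557% of all genes were called higher. At an unadjusted p under 0.05 by limma 2 of the 8 were higher, TAGLN and CALD1, and none lower, and the same 2 had groups apart. The list mean ran from 6.76 to 6.89 log2 in basal and 7.15 to 7.33 in treated arrays. CALD1 stood at 1.04 (SE 0.34), SMTN at -0.26 (SE 0.25) and MYH11 at -0.10 (SE 0.11). No fibroblast (8), leukocyte (9), erythroid (3) or epithelial or mesothelial (7) marker passed by limma; 2, 0, 1 and 0 of them had an unadjusted p under 0.05, all higher. Their list means lay between 5.42 and 5.52 in basal and 5.53 and 5.66 in treated arrays for fibroblasts, 4.73 to 4.91 and 4.84 to 4.88 for leukocytes, 4.50 to 4.68 and 4.84 to 5.39 for erythroid cells, and 4.82 to 5.00 and 4.77 to 4.93 for epithelium. The 2 fibroblast markers were COL1A2, at 10.91 and 11.85 log2 (basal and treated, a change of 0.93, SE 0.33), and FAP, at 3.41 and 3.74. The erythroid one was EPB42, at 4.64 and 5.81 (a change of 1.17, SE 0.30), with groups apart. The brightest leukocyte marker, CD14, stood at 6.74 and 7.10, and the brightest epithelial one, KRT18, at 6.69 and 6.44. The leukocyte antigen PTPRC stood at 3.90 and 3.84 log2 and the epithelial EPCAM at 3.63 and 3.72, both below the 25th percentile of the arrays. The part of these shifts in the PPP1R16B result was not tested.

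The catalytic subunits that TIMAP binds did not pass the test. PPP1CB, the isoform of the myosin phosphatase complexes, stood at 10.01, 10.63 and 11.13 log2 in basal 1, 2 and 3 and at 10.72, 10.93 and 11.06 in TGFB1 1, 2 and 3. The groups overlapped, and the change was 0.32 log2 (95% interval -0.38 to 1.02, limma adjusted p = 0.634). Its 2 other probe sets stood at 0.47 (SE 0.42) and 0.85 (SE 0.55). PPP1CC stood at 0.37 (SE 0.34) and PPP1CA at -0.56 (SE 0.26, limma adjusted p = 0.343), again with overlapping groups.

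Of the family of targeting subunits, PPP1R16A (MYPT3), the closest relative of TIMAP, and PPP1R12C were measured. PPP1R16A stood at 7.81, 7.46 and 7.33 log2 in basal arrays and 7.39, 7.36 and 7.26 in treated ones, a change of -0.20 (95% interval -0.56 to 0.17, limma adjusted p = 0.566). PPP1R12C, of the myosin-directed branch, stood at -0.13 (95% interval -0.62 to 0.36). PPP1R12A and PPP1R12B were not analysed here. On the same arrays the change of PPP1R16B minus that of PPP1R16A was -2.10 log2 (SD of the array differences 0.19 in basal and 0.38 in treated arrays, n = 3), and minus that of PPP1R12C it was -2.17 (0.20 and 0.58), with lower values in 9 of 9 pairs each (exact permutation p = 0.1 for both, the smallest possible).

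The other regulatory subunits of the phosphatase covered its inhibitors, glycogen-targeting subunits and nuclear subunits. None of the 22 measured passed (limma; 2 lower and none higher at an unadjusted p under 0.05), and their median change was -0.05 log2. PPP1R3B, a glycogen-targeting subunit, stood at -0.74 log2 with a limma adjusted p = 0.187 (SE 0.24) and PHACTR4, a phosphatase and actin regulator, at -0.41 (SE 0.11, limma adjusted p = 0.124), both with groups apart. PPP1R35, a centrosomal protein, stood at -0.32 (SE 0.14) and PPP1R13L, the p53 inhibitor iASPP, at 0.56 (SE 0.29). The other probe sets of PPP1R13L stood at 0.03 (SE 0.17) and 0.08 (SE 0.16). Over all 28 measured catalytic and regulatory subunits PPP1R16B, chosen with its fall known, was the 1 that passed. As 1.72% of all genes were called in either direction, the absence of calls among the other 27 says nothing particular about them. The other 27 ran from -0.74 to 0.63 log2 with 16 below and 11 above 0. The groups were apart in 3 of the 27, against 23.3% of all genes (2 lower against 15.1% of all genes, and 1 higher against 8.19%). Set against each of the 27 on the same array, PPP1R16B changed by -2.93 to -1.56 log2. Each of these 27 comparisons had an exact permutation p = 0.1, the smallest possible, which adjustment over 27 equal values cannot change. All share the values of PPP1R16B, so they add no separate support to its fall.

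**Figure D4:**
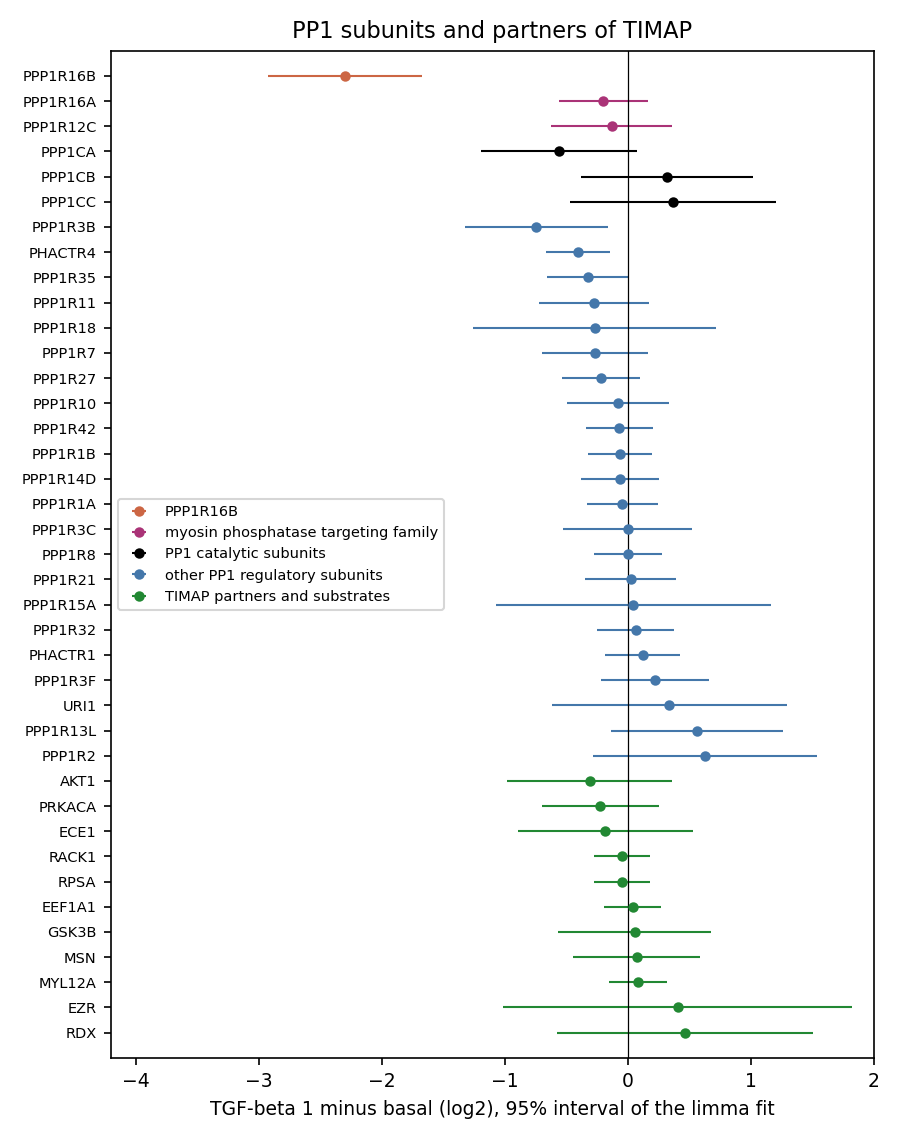
Change after TGF-beta 1 (log2) with the 95% interval of the limma fit for PPP1R16B, the other phosphatase 1 subunits and the listed partners of TIMAP, coloured by list. PPP1R16B lies at -2.30 with an interval of -2.93 to -1.67, below the interval of every other gene plotted.

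A list of partners and substrates of TIMAP was written from general knowledge, and no file used here bears on which proteins bind it or are modified by it. None of its 11 measured members passed (limma; none at an unadjusted p under 0.05), and their median change was 0.04 log2. The ERM proteins, which link actin to the membrane, stood at 0.07 (SE 0.21) for moesin (MSN), 0.46 (SE 0.43) for RDX and 0.41 (SE 0.58) for EZR. RPSA, a laminin receptor and ribosomal protein, stood at -0.05 (SE 0.09), RACK1, a scaffold, at -0.05 (SE 0.09) and the elongation factor EEF1A1 at 0.04 (SE 0.10). These 3 lay at 13.14 to 13.59 log2 on average in either group, near the top of the array range, where changes are compressed. The endothelin-converting enzyme ECE1 stood at -0.18 (SE 0.29), the myosin light chain MYL12A at 0.09 (SE 0.10) and the kinase AKT1 at -0.31 (SE 0.28). The kinases PRKACA and GSK3B stood at -0.22 (SE 0.20) and 0.06 (SE 0.25). Other probe sets of ECE1, GSK3B and RACK1 had the opposite sign, between -0.04 and 0.06 log2.

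Of 109 measured genes in the 9 pathway lists 3 fell and none rose. That is 2.75% of them, near the shares over all genes (1.72% called in either direction, 1.17% called lower), so the count says nothing particular about these lists. ADCY4, an adenylyl cyclase that makes cAMP, was the 1 of 12 genes of cAMP and protein kinase A signalling that passed. It stood at 6.78, 6.65 and 6.76 log2 in basal arrays and 5.96, 6.10 and 6.11 in treated ones, and fell by 0.67 log2 (SE 0.10, limma adjusted p = 0.0444). In the same list RAPGEF3 (EPAC1), a cAMP-activated exchange factor of the endothelial barrier, stood at -1.16 (SE 0.26, limma adjusted p = 0.094). Regulatory subunits of the kinase, PRKAR1B and PRKAR2A, stood at -0.41 (SE 0.10) and 0.29 (SE 0.13).

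Of 26 other serine/threonine phosphatase genes, PPP2R2A, a regulatory subunit of phosphatase 2A, was the 1 that passed. It stood at 11.43, 11.79 and 11.56 log2 in basal arrays and 10.53, 10.71 and 10.80 in treated ones, and fell by 0.91 log2, with a standard error of 0.14 (limma adjusted p = 0.0441). PPP2CB, a catalytic subunit of phosphatase 2A, stood at -0.35 (SE 0.12), and the calcineurin subunits PPP3CA and PPP3CC stood at 0.45 (SE 0.12) and 0.53 (SE 0.20). The other probe sets of PPP3CC stood at 0.11 (SE 0.11) and -0.14 (SE 0.11). Of 9 TGF-beta ligands, receptors and SMADs the type II receptor TGFBR2 alone passed, with a change of -1.23 log2 and a limma adjusted p = 0.0461 (SE 0.19). TGFBR1 stood at 0.49 (SE 0.16), ENG at 0.99 (SE 0.38) and ACVRL1 at -0.89 (SE 0.34). The calls of ADCY4, PPP2R2A and TGFBR2 each ended when any array but basal 3 was left out. Among separately tested probe sets ADCY4 alone of these 3 kept its call, and it lost that call after a further quantile normalization, by limma-trend and with either filter on dim genes.

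The 5 measured genes of CAAX prenylation and processing, the steps that place TIMAP at the membrane, did not pass (limma; none at an unadjusted p under 0.05). ZMPSTE24, a CAAX protease, stood at 1.02 (SE 0.43), RCE1, the other one, at -0.26 (SE 0.14), and the transferase subunits PGGT1B and FNTB at 0.48 (SE 0.29) and -0.20 (SE 0.13).

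The genes whose profile was most like that of PPP1R16B were sought by the root mean square difference between log2 values centred on the mean of each gene, over the 6 arrays. The nearest of 9161 genes was SLCO2B1, an organic anion carrier, at 0.074 log2, where the median gene lay at 1.18. SLCO2B1 stood at 9.60, 9.34 and 8.74 log2 in basal arrays and 6.53, 6.77 and 7.24 in treated ones. Both genes thus had basal 1 as the highest and basal 3 as the lowest basal array, and TGFB1 1 as the lowest treated one. Next came AOC3 (0.16), QPRT, an enzyme of NAD synthesis (0.18), AFAP1L2, an adaptor of SRC signalling (0.21), and PEG10, a gene derived from a retrotransposon (0.26). A gene known by an identifier alone followed (0.26), then JAM2, a junctional adhesion molecule of endothelium (0.30), and the prostaglandin carrier SLCO2A1 (0.31). All 8 passed the threshold and fell, with AFAP1L2 at -1.90 log2 and JAM2 at -1.92 (SE 0.26 and 0.24), which the choice of likeness all but requires. The second probe set of SLCO2B1 stood at -1.44 (SE 0.20) and that of JAM2 at -2.19 (SE 0.25). The 2 dimmer probe sets of AOC3 stood at -0.62 (SE 0.15) and -0.05 (SE 0.08), the latter at a mean of 3.34 log2, under the 25th percentile.

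Basal 3 as the lowest basal array together with TGFB1 1 as the lowest treated one was found in 43 of the 107 called falls (40.2%) and in 687 of all 9162 genes (7.50%). The called falls were chosen from these same arrays, and all genes include rises, so these shares describe the arrays and carry no test. Why the shares differ was not tested.

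**Figure D5:**
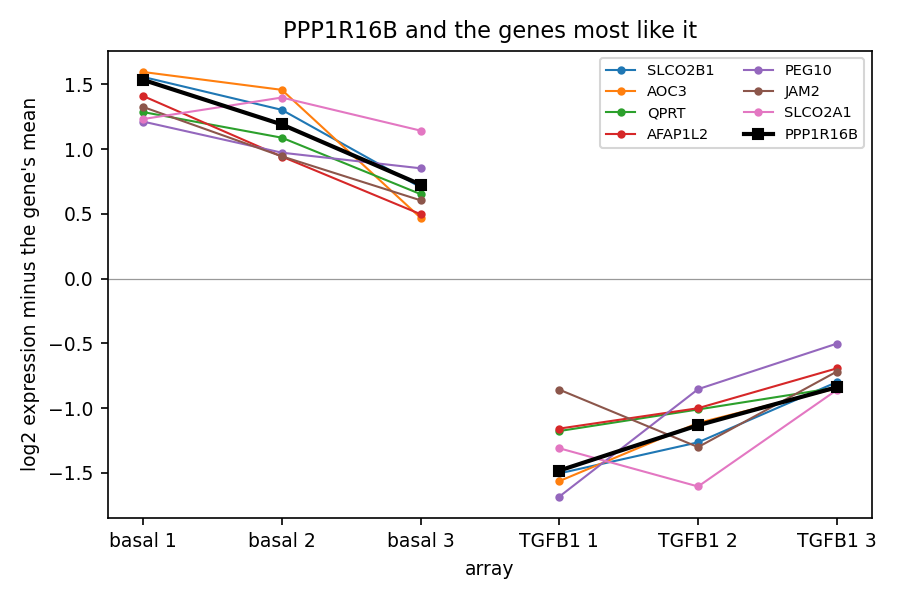
Log2 expression minus the mean of each gene over the 6 arrays, for PPP1R16B (black squares) and 7 of the 8 genes most like it; lines join the values of 1 gene within a group and imply no order of arrays. All stand above their mean on the basal arrays and below it on the treated ones, with PPP1R16B and SLCO2B1 nearly superposed.

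The gene next to PPP1R16B in the RefSeq gene order (assembly ARS-UCD2.0) was FAM83D, a protein of the mitotic spindle. It stood at 10.15, 9.95 and 10.12 log2 in basal arrays and 8.30, 9.09 and 9.20 in treated ones. The groups were apart, and the change of -1.21 log2 (SE 0.25) missed the threshold (limma adjusted p = 0.0831). The nearest measured gene on the other side, RALGAPB, with 4 genes between, stood at 0.64 (SE 0.27). Farther out on that side LBP stood at 0.02, BPI at 0.09 and TGM2, a transglutaminase, at 0.14, and beyond FAM83D stood DHX35 at -0.15, TOP1, the DNA topoisomerase, at 0.17 and PLCG1, a phospholipase, at -0.65. Of these 8 neighbours none passed (limma; 1 at an unadjusted p under 0.05, FAM83D), where 1.72% of all genes were called, and 1 of 8 had groups apart, FAM83D, where 23.3% of all genes did.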

How the data were processed

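The authors deposited log2 expression, made by RMA with the affy package (no versions) per the submitters' processing notes. RMA removes background, equalises the arrays by quantiles and sums up each probe set. Small changes near background or saturation are compressed, and detection is not called. Columns were assigned by label. Of 24128 probe sets 112 controls were left out. The array annotation gave 1 symbol for 13292, several for 86 and none for 10638; 13263 matched the RefSeq gene table by gene identifier. The brightest probe set on average stood for a gene. PPP1R16B has 1, and RefSeq lists 3 transcripts for it.

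The comparison used limma 3.58.1 (lmFit and eBayes, no covariate, 4 residual degrees of freedom) in R 4.3.3, two-sided, with Benjamini-Hochberg adjustment at 0.05. The fit was tested on simulated data of 9162 genes. Figures used matplotlib 3.10.9 in Python 3.11.15.

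The gene, the 9 pathway lists (168 genes, 109 measured) and the 6 marker lists were chosen with earlier results of these data known. The result of 1 pathway list, which is counted in the total, is not reported here. The naming rule took all measured catalytic and targeting subunits and partners, the 4 lowest p-values and any call of each other list, the 8 genes most like PPP1R16B, 3 neighbours by size of change on either side and 4 by gene order. For other cell types only examples are named, among them every fibroblast and erythroid marker with an unadjusted p under 0.05 by limma. CDH5, TEK, VWF, KDR, FLT1, PTPRC and EPCAM were added outside the rule as defining markers. ROBO4 was added outside it as an endothelial marker whose treated arrays all lay above the basal ones.

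The alternatives were another quantile step, array medians set equal, limma-trend, robust eBayes, the replicate number as a block, dim genes removed (below the 25th percentile, or below the median), averaged or separate probe sets, each array left out, and thresholds of 0.1 and 0.01. The array split as a block was added with the data known.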

Additional observations from a re-analysis of the deposited data

How the results depend on the processing

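The change of PPP1R16B kept its direction under all 18 alternatives and its call under 11. Limma-trend, robust eBayes, the replicate block, the filters, the probe set choices and the thresholds cannot alter the estimate of a gene with 1 probe set. Its direction there was fixed in advance. So was the call at 0.1, given the limma adjusted p = 0.0260. The calls kept without basal 3 and with the array sets as a block are no separate check. With the replicate number as a block it stood at -2.30 log2 with a limma adjusted p = 0.0801, and at the threshold of 0.01 the same -2.30 did not pass. Leaving out 1 array gave -2.51 to -2.11. The 158 genes called became 99 by limma-trend, 433 at a threshold of 0.1, 878 with the array sets as a block, 0 to 1538 with 1 array left out, 0 at 0.01 (limma, 1598 at an unadjusted p under 0.05) and 0 with the replicate block (limma, 2039). The 3 list genes called became 1 among separate probe sets, 12 with the array sets as a block, 0 to 16 with 1 array left out, 0 at 0.01 (limma, 13 at an unadjusted p under 0.05) and 0 with the replicate block (limma, 25). The 16 came without basal 3, a fit that mixes treatment with the array split, and held PPP1CA, PPP1R11 and PHACTR4; the 12 held PPP1R13L and EZR. The cause of these moves was not tested, and the fits with 1 array left out also rest on fewer arrays. The labels state no culture shared by same-numbered arrays, so the numbers were not taken as pairs. Deviations of same-numbered arrays from their group means correlated across genes at 0.67 (number 1), -0.51 (number 2) and 0.70 (number 3). Deviations within a group cancel out, so these correlations depend on one another and do not settle the pairing. Basal 2 correlated best with TGFB1 1 (0.57). The number of arrays limits every value.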
